A study of Mus musculus with 12 samples.

Results

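The genes described here are the nuclear genes of the mitochondrial respiratory chain, followed through 12 mouse thymus libraries. They are the 94 protein-coding genes, of 51826 genes quantified, whose symbol begins with Nduf, Uqcr, Atp5 or Cox4 to Cox8, or is Sdha, Sdhb, Sdhc, Sdhd or Cycs. By these names 46 belong to complex I, 4 to complex II, 8 to complex III, 18 to complex IV and 17 to complex V, and Cycs encodes cytochrome c. The choice by name is not exact. The 46 of complex I include 8 Ndufaf assembly factors and Ndufa4, now regarded as a subunit of complex IV, while Atp5s and Atp5sl, counted here with complex V, are not subunits of the ATP synthase. Of the libraries, 9 are T cell leukemias of thymus from mice in which tetracycline, given as doxycycline per the sample titles, induces the interleukin-7 receptor alpha chain, and 3 are thymus of healthy controls. All are of strain F5, the labels give no ages, and they name no promoter for the inducible gene. The labels do not say whether each library came from a different animal, so p-values measure the spread between these libraries, which may be technical.

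The respiratory chain passes electrons from NADH, through complex I, and from succinate, through complex II, to ubiquinone, then through complex III and cytochrome c to complex IV, which reduces oxygen. Complexes I, III and IV pump protons across the inner mitochondrial membrane, and complex V, the ATP synthase, makes ATP as the protons return. Most subunits are nuclear genes translated in the cytosol, while the mitochondrial genome encodes core subunits of every complex except complex II. Dividing T cells draw on the chain for ATP and, through the reoxidation of NADH, for aspartate and nucleotide synthesis.

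The promoters of these genes are shown first, because many members moved together and the transcription factors NRF1, YY1 and GABP are known to act on respiratory genes. RefSeq promoter sequences of build GRCm38.p6, from 250 bases before to 50 bases after the start of transcription, were matched by symbol for 75 of the 94 members. The NRF1 motif GCGCANGCG, read on both strands, was found in 23 of these 75 (30.7%), against 7.03% of all gene symbols in the promoter set and 1634 of the 16282 with a protein-coding transcript. A promoter of each complex follows, from the member with the motif that had the highest mean level, with the matches on either strand in capitals.

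Ndufa6 (chr15:82354242-82354541, minus strand): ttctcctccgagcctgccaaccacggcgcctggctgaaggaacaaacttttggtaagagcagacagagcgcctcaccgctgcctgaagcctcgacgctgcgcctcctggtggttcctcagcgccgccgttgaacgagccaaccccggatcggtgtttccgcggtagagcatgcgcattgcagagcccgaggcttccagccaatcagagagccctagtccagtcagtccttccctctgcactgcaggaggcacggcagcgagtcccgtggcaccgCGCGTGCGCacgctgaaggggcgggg
Sdha (chr13:74350191-74350490, minus strand): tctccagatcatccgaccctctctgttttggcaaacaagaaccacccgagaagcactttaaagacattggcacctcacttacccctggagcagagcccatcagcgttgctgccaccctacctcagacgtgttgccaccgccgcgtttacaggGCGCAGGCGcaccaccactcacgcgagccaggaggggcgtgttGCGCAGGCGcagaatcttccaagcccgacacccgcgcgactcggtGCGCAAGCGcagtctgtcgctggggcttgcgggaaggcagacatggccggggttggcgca
Uqcrc1 (chr9:108936398-108936697, plus strand): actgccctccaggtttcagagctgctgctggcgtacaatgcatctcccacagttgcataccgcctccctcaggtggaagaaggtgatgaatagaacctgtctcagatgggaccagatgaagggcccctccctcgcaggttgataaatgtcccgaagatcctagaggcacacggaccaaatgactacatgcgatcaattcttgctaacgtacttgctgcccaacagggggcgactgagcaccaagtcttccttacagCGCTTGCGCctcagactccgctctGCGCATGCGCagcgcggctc
Cox6a1 (chr5:115348909-115349208, minus strand): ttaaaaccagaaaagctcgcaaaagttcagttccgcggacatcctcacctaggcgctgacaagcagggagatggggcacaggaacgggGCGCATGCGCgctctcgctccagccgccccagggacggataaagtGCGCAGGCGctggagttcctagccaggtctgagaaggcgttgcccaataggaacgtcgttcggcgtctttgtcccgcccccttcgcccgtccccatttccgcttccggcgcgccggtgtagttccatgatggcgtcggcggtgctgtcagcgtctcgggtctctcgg
Atp5h (chr11:115419870-115420169, minus strand): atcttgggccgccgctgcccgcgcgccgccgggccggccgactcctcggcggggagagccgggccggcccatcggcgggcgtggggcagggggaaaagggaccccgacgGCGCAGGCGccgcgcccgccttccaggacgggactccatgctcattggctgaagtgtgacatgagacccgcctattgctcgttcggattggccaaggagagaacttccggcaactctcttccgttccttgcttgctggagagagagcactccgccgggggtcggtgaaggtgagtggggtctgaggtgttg

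The Sdha promoter held 3 matches, those of Uqcrc1 and Cox6a1 held 2 each, and those of Ndufa6 and Atp5h held 1. Other members with the motif were Ndufa5, Ndufa8, Ndufa11, Ndufaf4, Ndufaf5, Ndufb4, Ndufb10, Ndufs5, Ndufs6, Sdhd, Uqcr11, Cycs, Atp5c1, Atp5g2, Atp5g3, Atp5k, Atp5l and Atp5o. The YY1 motif AANATGGCG was found on either strand in 11 of 75 members (14.7%), namely Atp5b, Atp5j, Atp5j2, Ndufa7, Ndufa9, Ndufaf8, Ndufb11, Ndufc1, Ndufs4, Ndufs6 and Ndufs7. It stood in 2.76% of all gene symbols and 3.84% of coding ones. The ETS motif CCGGAAGT, of the kind GABP binds, was found on either strand in 5 of 75 members (6.67%), against 4.31% and 5.90%. The motifs were searched one by one, so matches of different motifs may overlap. A match is a run of letters and does not show that a factor binds there.

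Library makeup bears on every value that follows. Totals ranged from 18431516 to 34769946 estimated counts over tumors 1 to 6 and from 8133152 to 17158731 over the other 6 libraries. Mitochondrially encoded RNA made up 31.6% to 69.3% of tumors 1 to 6 and 0.0948% to 11.1% of the others. Olfactory and vomeronasal receptor genes, which thymus is not known to express and which serve as a measure of background, had a median of 0 to 0.511 counts-per-million per kilobase of effective transcript length (CPM per kb) in tumors 1 to 6, against 0.668 to 0.842 in the others. The median over the 94 members exceeded that background 3.32 to 4.34 times in the controls and 2.47 to 4.32 times in tumors 7 to 9. The labelled tissue was checked on 14 T lineage markers, whose sum ran from 1901 to 2617 CPM over tumors 1 to 6. The controls had 61.5 to 134 CPM and tumors 7 to 9 had 80.3 to 158 CPM. The controls thus carried low levels of the genes that define thymocytes. In such bulk libraries fewer cells of a type and less RNA per cell cannot be told apart, nor can a difference between tumors 1 to 6 and the controls be told apart from their difference in background.

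By scaled counts-per-million (CPM), respiratory chain messenger RNA in tumors 7 to 9 overlapped the controls and was several-fold more abundant in tumors 1 to 6, while as a share of counts it was lower in tumors 7 to 9. Members made up 0.0668% to 0.0932% of each control library, 0.0266% to 0.0589% of tumors 7 to 9 and 0.0606% to 0.318% of tumors 1 to 6. The 95% Wilson interval of the lowest of these shares ran from 0.0259% to 0.0274% and that of the highest from 0.316% to 0.320%, which covers counting error only. Scaled by trimmed mean of M-values (TMM) factors, the members summed to 266, 296 and 261 CPM in controls 1 to 3. Tumors 1 to 6 held 2523, 3014, 2108, 2147, 4409 and 2274 CPM, and tumors 7 to 9 held 264, 307 and 230 CPM. Tumor 5 was the highest library and all of tumors 1 to 6 lay above the other 6, which overlapped among themselves. The rise over the controls depends on the denominator: of all counts, the share in tumor 4 lay below that of every control. Of the counts on nuclear protein-coding genes, with no TMM factor, members made up 0.362% to 0.825% in tumors 1 to 6, above 0.106% to 0.149% in the controls, while tumors 7 to 9 lay below every control at 0.0395% to 0.0915%.

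**Figure D1:**
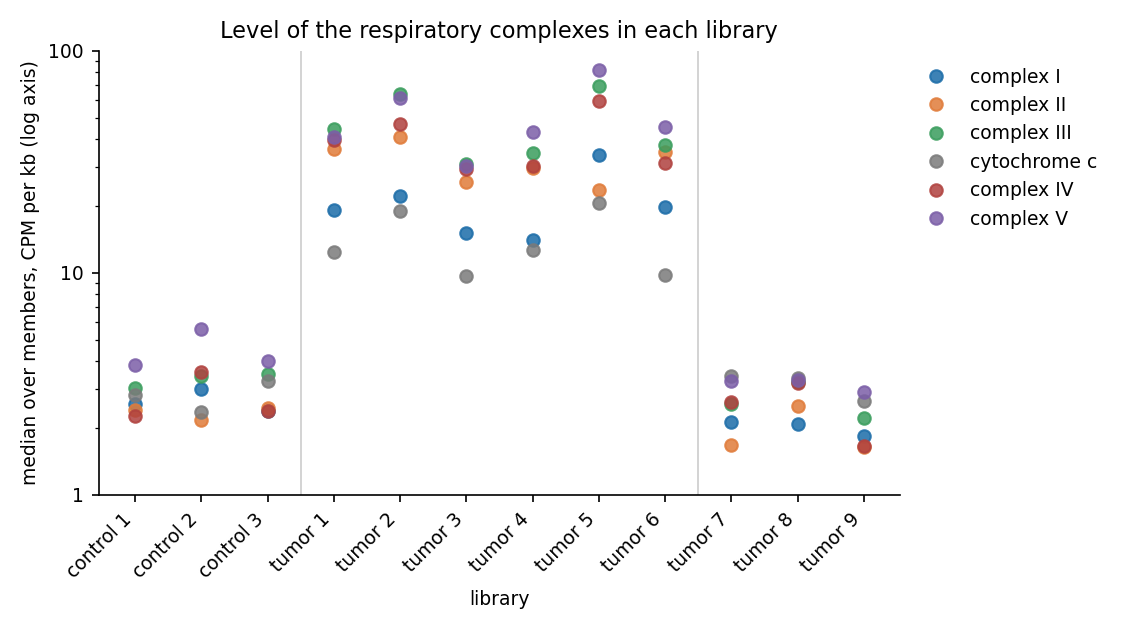
Median level over the members of each complex in the 12 libraries, in CPM per kb on a log axis; each point is 1 library and 1 complex. Every point of tumors 1 to 6 lies above every point of the controls and of tumors 7 to 9, and complex I lies below complexes III, IV and V in each of tumors 1 to 6.

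The first question was whether the complexes stood at different levels within the tumors. Over tumors 1 to 6 the median complex I member was at 19.2, 22.1, 15.1, 14.0, 33.9 and 19.8 CPM per kb. The median complex V member was at 40.7, 61.4, 30.3, 43.1, 81.9 and 45.6 CPM per kb, and that of complex III at 44.4, 63.9, 30.8, 34.7, 69.7 and 37.7. Complex I thus lay below both in every one of these tumors. On the log2 scale the median of complex III was above that of complex I by 1.18 ± 0.22 (SD, n = 6 tumors), that of complex IV by 0.94 ± 0.18 and that of complex V by 1.28 ± 0.23, each in 6 of 6 tumors. The order among III, IV and V depends on which members are counted: over subunits alone, without assembly factors, tissue-restricted forms or members under 5 CPM, complex IV was highest at 1.5, followed by V at 1.19 and III at 0.90. Complex II was above complex I by 0.66 ± 0.59, in 5 of 6 tumors. Tumor 5 was the exception, where the median of the 4 complex II genes was 23.6 CPM per kb against 33.9 for complex I, a log2 ratio of -0.52. Counted on protein-coding transcripts alone, which was tried after seeing the data, complex II was above complex I by 0.80 ± 0.20 (SD, n = 6 tumors) and in 6 of 6. Cytochrome c was below all complex medians in each of the 6, at 9.68 to 20.7 CPM per kb. These are medians of unequal lists, with no test. Short transcripts lay higher in general: over the 80 members with at least 5 CPM on average in tumors 1 to 6, the mean level per kb and the length of the coding transcript had a Spearman correlation of -0.39, as a description across genes that share the same libraries.

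The spread over tumors differed in size between complexes. The summed level of complex II ranged least, from 117 CPM in tumor 1 to 163 CPM in tumor 5, a ratio of 1.39. Complex I ranged over a ratio of 1.85, complex III over 2.19 and complex V over 2.22, from 823 CPM in tumor 4 to 1824 CPM in tumor 5. Complex IV ranged most among the complexes, from 295 CPM in tumor 3 to 864 CPM in tumor 5, a ratio of 2.93. Cycs had a ratio of 2.78. Tumor 5 had the highest sum in every complex, and tumor 3 or 4 the lowest in complexes I, III, IV and V.

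Subunits of 1 complex are needed in fixed numbers in the assembled enzyme, yet the messenger RNA of the members listed here differed widely. Among members with at least 5 CPM, the highest mean level exceeded the lowest by 31.6-fold in complex I, 4.61-fold in complex II, 8.24-fold in complex III, 17.6-fold in complex IV and 62.3-fold in complex V. The low end of complex IV was Cox7a2l, which joins complexes into supercomplexes, at 24.5 CPM per kb. The lowest members of complex V were Atp5s and Atp5sl, which are not subunits. The spreads of complexes IV and V are therefore not between subunits alone. The highest member was Cox6c, a small structural subunit of complex IV, at 430 ± 316 CPM per kb (SD, n = 6 tumors). Atp5h, subunit d of the stalk of the ATP synthase, followed at 350 ± 142 and Atp5b, its catalytic beta subunit, at 261 ± 110 CPM per kb. In complex III the hinge protein gene Uqcrh, at 171 ± 67.2, and Uqcrb, at 169 ± 70.0 CPM per kb, led and differed by far less than their spread. Ndufa6, Ndufa10, Ndufa12 and Ndufa5, accessory subunits, led complex I at 98.8 ± 65.2, 75.7 ± 19.6, 66.6 ± 17.6 and 65.2 ± 61.9 CPM per kb, within each other's spread. At the low end of complex I stood Ndufa11, an accessory membrane subunit, at 3.12 ± 0.995 CPM per kb. The 8 assembly factors, which act while complex I is built, lay between 3.35 CPM per kb for Ndufaf1 and 25.2 CPM per kb for Ndufaf2.

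**Figure D2:**
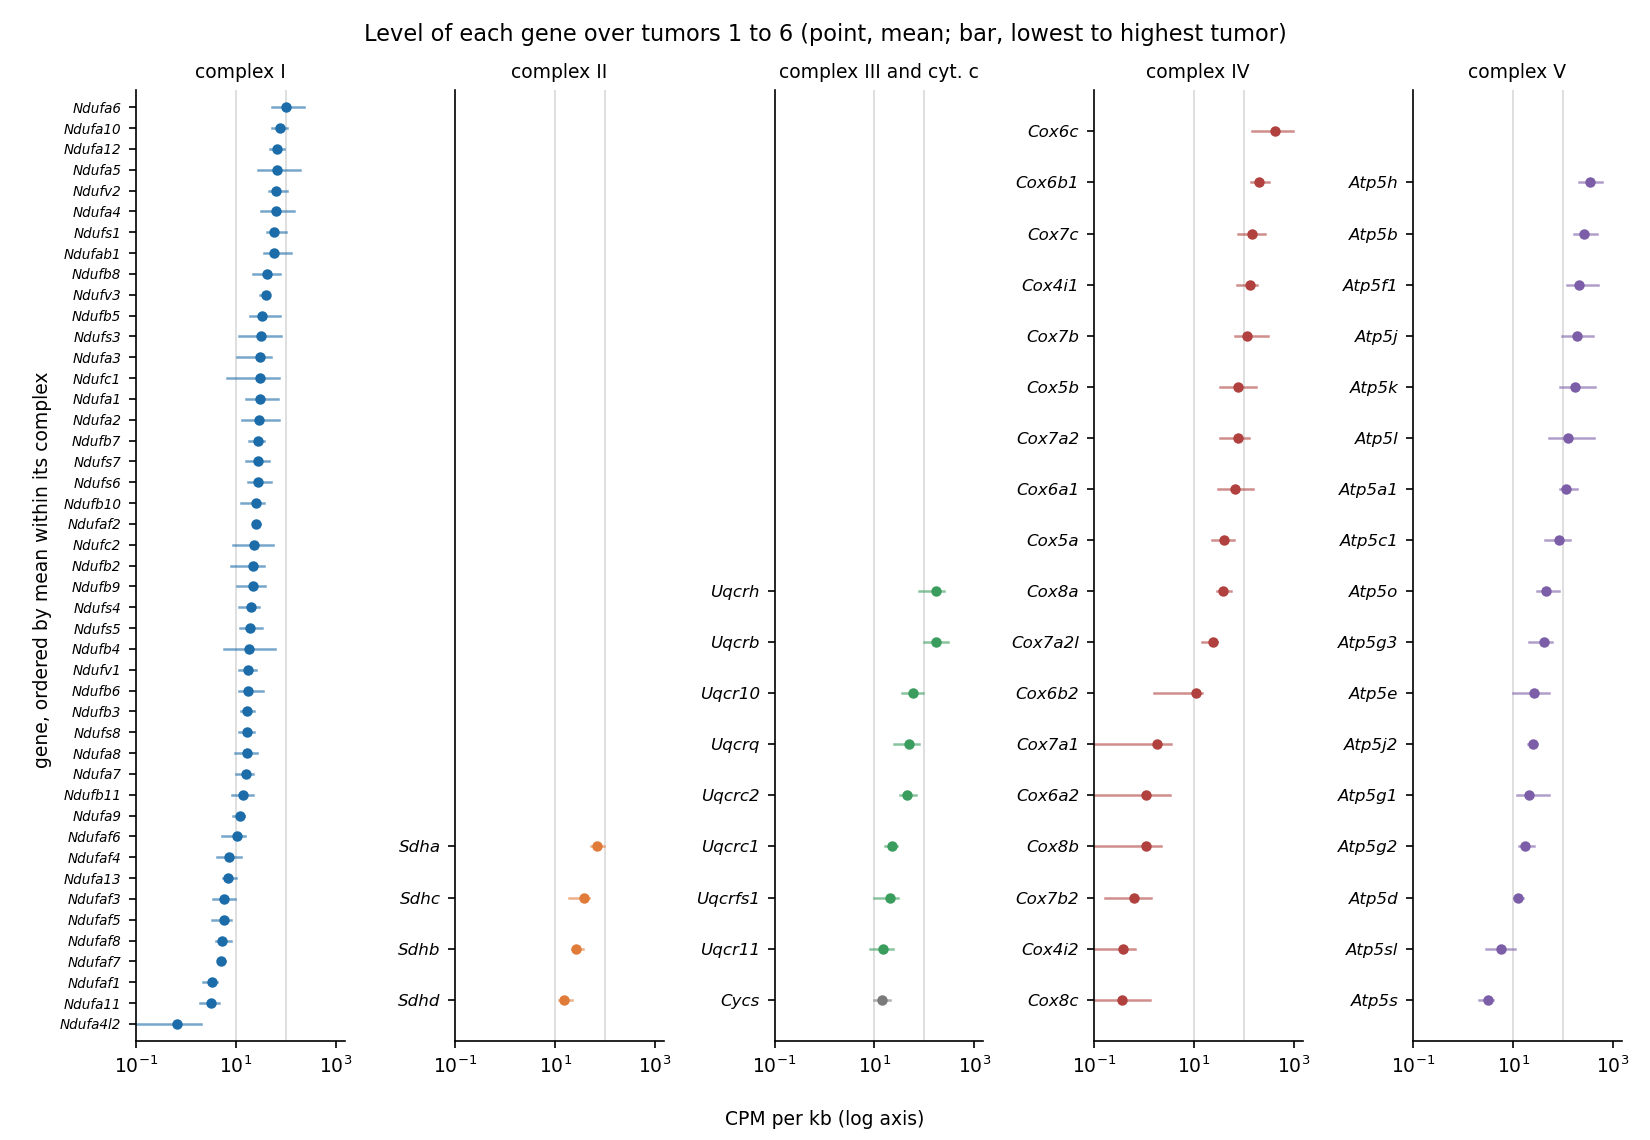
Level of 93 of the 94 genes over tumors 1 to 6 in CPM per kb on a log axis, by complex; points are means and bars run from the lowest to the highest tumor, with bars that reach the left edge going down to 0 or below the axis. Cox6c is highest at 430 CPM per kb, and the tissue-restricted complex IV forms lie between 0.370 and 1.81 CPM per kb, apart from Cox6b2 at 10.9.

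Several subunits of complex IV, and subunit c of the ATP synthase, are encoded by more than 1 gene, and in most of these families the general form made up nearly all of the signal in tumors 1 to 6. Cox4i1 had 99.1% to 100% of the level of its pair with Cox4i2, the form of lung and of low oxygen. Cox7b had 97.9% to 99.8% against the testis form Cox7b2, and Cox8a had 93.6% to 100% against Cox8b of heart and muscle and Cox8c of testis. Cox6a1 had 89.8% to 100% against Cox6a2 of heart and muscle, and Ndufa4 95.8% to 100% against Ndufa4l2, which low oxygen induces. The COX7A family was shared, with 54.2% to 84.0% on the general Cox7a2, 13.0% to 44.3% on Cox7a2l, which joins complexes into supercomplexes, and 0% to 3.03% on Cox7a1 of heart and muscle. The counts behind the restricted forms were few: 0 to 3 for Cox4i2, 0 to 3 for Cox8c, 0 to 4 for Cox8b, 1 to 5 for Cox7b2, 0 to 14 for Cox6a2, 0 to 11 for Ndufa4l2 and 0 to 20 for Cox7a1 in each of tumors 1 to 6. Cox6b2, known from testis, was the exception among them, with 4 to 92 counts, 10.9 ± 4.70 CPM per kb and 0.983% to 9.40% of its pair with Cox6b1. Tumor 4 held 0.545 CPM of Cox6b2 and the other 5 tumors held 3.67 to 4.97 CPM.

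In the controls and tumors 7 to 9 the restricted forms had a larger part of each pair, 8.12% to 11.6% for Cox4i2, 11.7% to 37.6% for Cox7b2 and 21.1% to 27.3% for Cox8c. In the controls they lay nearer to the background than the median member did, Cox4i2 at 1.05 to 1.91, Cox7b2 at 1.45 to 2.17, Cox8c at 1.58 to 1.76 and Cox7a1 at 1.85 to 2.92 times the receptor median. The markers of the tissues that use these forms were also low. The 10 skeletal muscle markers summed to 4.36 to 23.4 CPM in tumors 1 to 6 and 22.3 to 26.5 CPM in the controls, and the 7 germ cell markers to 1.37 to 6.65 and 9.31 to 11.6 CPM. No marker of these 2 lists was at 0 in all of tumors 1 to 6. Subunit c, which forms the rotating ring, was shared among 3 genes: Atp5g3 had 37.6% to 66.2% of the level, Atp5g1 16.8% to 37.2% and Atp5g2 16.8% to 37.5%. The 3 genes encode the same mature protein, so the order of Atp5g1 and Atp5g2, which overlap, does not bear on the ring itself.

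**Figure D3:**
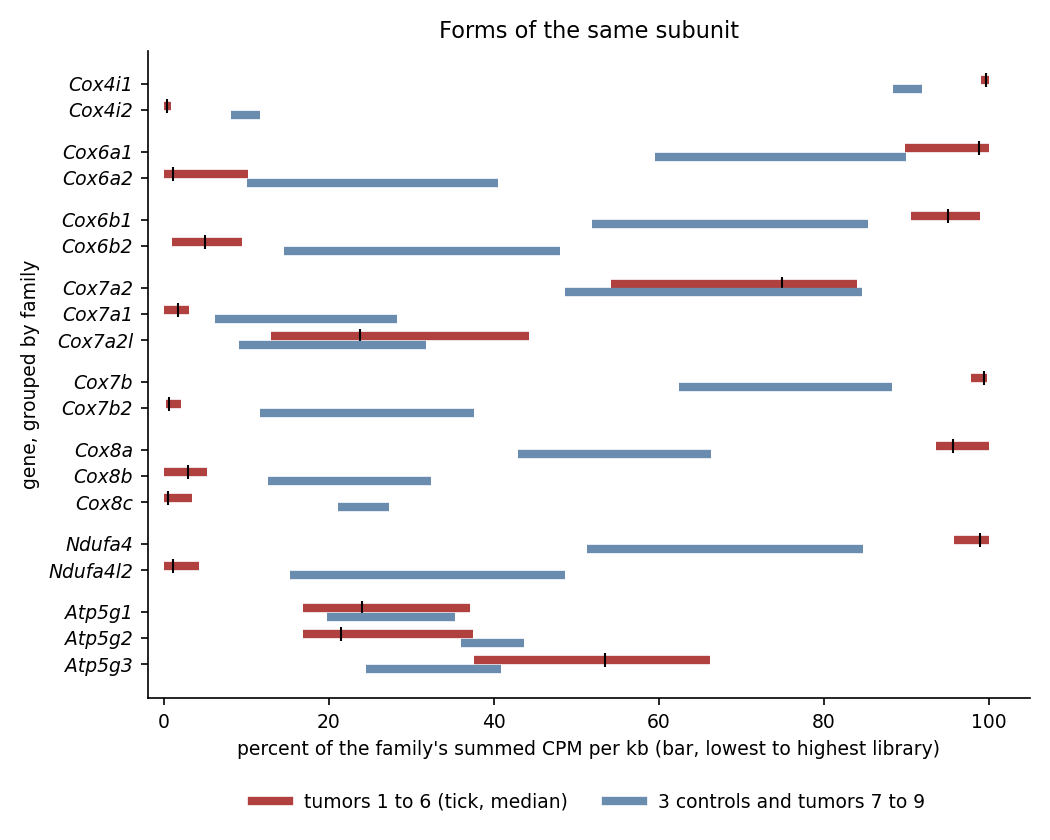
Percent of each family's summed CPM per kb on each gene; red bars run from the lowest to the highest of tumors 1 to 6, with a tick at the median, and blue bars over the 3 controls and tumors 7 to 9. The general forms of COX4, COX6A, COX6B, COX7B, COX8 and NDUFA4 hold 89.8% or more in tumors 1 to 6 and less in most other libraries, while the COX7A and ATP5G families are shared.

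The second question was which members differed between tumors and controls. With all 9 tumors against the 3 controls, edgeR's quasi-likelihood test called 0 of 94 members higher and 0 lower at a Benjamini-Hochberg adjusted p under 0.05, where 0% of all 40521 genes tested were called higher and 0.00494% lower. The smallest adjusted p among members was 0.129, and 70 of 94 had an unadjusted p under 0.05, as 7298 of all 40521 genes (18%) had. The median log2 fold change of the members was 2.39, against -0.45 for all genes tested and -0.01 for nuclear protein-coding genes. By DESeq2 47 members were higher, where 10.1% of all genes were, and 0 were lower, where 0.131% were. The 9 tumors are not alike, and tumors 7 to 9 lay among the controls for most members: all 9 tumors were above every control for Ndufa12 and Ndufb4 alone, 2 of 94 where this held for 1.64% of all genes, the latter named after its values were seen to vary most over the tumors.

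The labels do not divide the tumors, and tumors 7 to 9 were set apart by the values of these same libraries. Adjusted p-values without them, here and below, describe a subset chosen from the data and are no independent support. Without tumors 7 to 9, 76 of 93 members tested rose by edgeR, where 19.6% of all genes and 32.1% of nuclear protein-coding genes did. In the other direction 0 members fell, where 20.3% of all genes did. The median of the members was 2.70 in that fit, that of all genes -1.29 and that of nuclear protein-coding genes -0.47. By complex 38 of 46 members of complex I rose, 4 of 4 of complex II, 8 of 8 of complex III, 12 of 17 of complex IV, 13 of 17 of complex V, and Cycs. The medians of the complexes were 2.27, 3.04, 4.09, 3.20 and 2.81 from I to V. Tumors 1 to 6 were each above all controls and all of tumors 7 to 9 for 81 of 94 members, where this held for 19.2% of all genes. For comparison, 79 of 83 cytosolic ribosomal protein genes rose in the same fit, with a median of 3.79. The higher level in tumors 1 to 6 was therefore shared with another abundant class of transcripts, and no test here sets the respiratory chain apart from it.

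The members that did not pass in the fit without tumors 7 to 9 fell into a few kinds. Of the tissue-restricted forms, Cox4i2, Cox6a2, Cox7a1, Cox7b2, Cox8c and Ndufa4l2 did not pass, and Cox8b was not tested there. Ndufa1, Ndufa7, Ndufab1, Ndufb2, Ndufc1, Ndufaf1 and Ndufaf8 of complex I did not pass, nor did Atp5g1, Atp5l, Atp5s and Atp5sl. Atp5g1 ranged from 9.32 to 10.9 CPM over the controls, from 8.29 to 9.49 CPM over tumors 7 to 9 and from 9.30 to 31.4 CPM over tumors 1 to 6, so its groups overlapped.

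**Figure D4:**
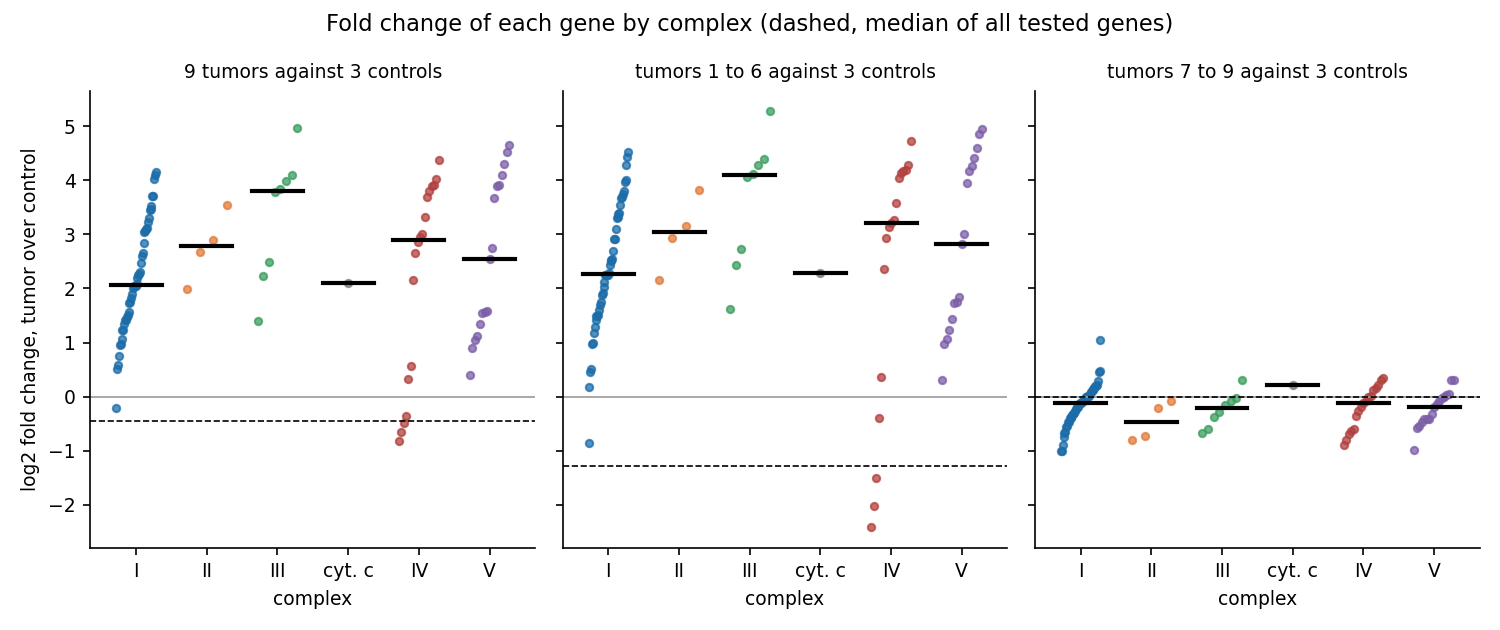
Log2 fold change of each gene by complex, from edgeR fits of 9 tumors, of tumors 1 to 6 and of tumors 7 to 9 against the same 3 controls; points are genes, bars the median of a complex and dashed lines the median of all tested genes. Complex medians lie between 2.07 and 3.81 with all 9 tumors, and between -0.47 and 0.22 with tumors 7 to 9.

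Complex I takes electrons from NADH at Ndufv1, which holds the flavin, and passes them along iron-sulfur clusters in Ndufv2, Ndufs1, Ndufs7 and Ndufs8 towards the quinone site. Ndufv2 had 1.99, 2.62 and 2.31 CPM in the controls, 2.25, 1.95 and 1.48 CPM in tumors 7 to 9, and 33.5 CPM at the lowest, 39 at the median and 79.2 at the highest of tumors 1 to 6. Tumors 1 to 6 were all far above the other libraries, and its log2 fold change without tumors 7 to 9 was 4.01 (SE 0.48, edgeR adjusted p = 4.0e-05). Ndufs8 had 3.10 and Ndufs3, a subunit beside the quinone site arm, 2.29 in that fit.

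Ndufs7 and Ndufv1 differed least among the core subunits of complex I. Ndufs7 was at 5.70, 5.03 and 4.32 CPM in the controls, 2.68, 6.57 and 4.86 CPM in tumors 7 to 9, and from 7.52 through a median of 12 to 23.2 CPM in tumors 1 to 6. The groups did not overlap but came close, and the log2 fold change without tumors 7 to 9 was 1.19 (SE 0.43, edgeR adjusted p = 0.0410). Ndufv1 had 1.74 and Ndufs1, the largest subunit, 1.88 in that fit. For Ndufs7, a noncoding transcript of 722 bases held 27 to 507 unscaled counts in tumors 1 to 6 and 0 to 3 in the controls. Its coding transcript of 983 bases held 0 to 37 in tumors 1 to 6 and 17 to 30 in the controls. A coding transcript of 758 bases held 51 in tumor 6 and 0 elsewhere. The rise of Ndufs7 is thus not shown to be one of coding RNA. In the controls Ndufs7 lay at 16.2 to 21.7 and Ndufs1 at 10.7 to 13.1 times the receptor median, far above the other core subunits, which lay at 1.77 to 7.79 times. Much of that control signal was on transcripts with a retained intron. All protein-coding transcripts of Ndufs1 together had 17, 42 and 34 counts in controls 1 to 3. A retained-intron transcript of 2610 bases had 217, 210 and 152 there, while the longest of several coding transcripts, of 2661 bases, had 2, 0 and 0. Tumor 5 had 169 counts on the former and 562 on the latter, but 1097 on another retained-intron transcript of 826 bases. Over the whole gene, retained-intron transcripts held 59.6% to 74.2% of the Ndufs1 counts over tumors 1 to 6 and 89.6% to 95.6% over the controls, so they held most of the counts in every one of these libraries.

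Such transcripts mattered for the list as a whole. Retained-intron transcripts took 32.6% to 36.1% of the members' counts in the controls, 33.9% to 44.8% in tumors 7 to 9 but 8.91% to 15.8% in tumors 1 to 6. Protein-coding transcripts took 53.3% to 57.7%, 46.6% to 56.1% and 71.6% to 84.3% in the same order. Tumors 1 to 6 did not overlap the other 6 libraries in either class, and the part of these transcripts in the fold changes was not tested.

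Complex II is the succinate dehydrogenase of the citrate cycle and the only complex made wholly of nuclear products, with the flavoprotein Sdha, the iron-sulfur protein Sdhb and the membrane anchors Sdhc and Sdhd. Sdha was at 3.41, 5.57 and 4.25 CPM in the controls, 4.45, 3.94 and 3.22 CPM in tumors 7 to 9, and 56.0 CPM at the lowest, 77.2 at the median and 102 at the highest of tumors 1 to 6. Its log2 fold change was 3.54 with all 9 tumors (SE 1.14, edgeR adjusted p = 0.129) and 3.81 without tumors 7 to 9 (SE 0.43, edgeR adjusted p = 3.1e-05). Tumors 1 to 6 were all above and the other 6 libraries overlapped. Sdhb, Sdhc and Sdhd had 2.94, 2.16 and 3.15 without tumors 7 to 9, and each was highest in tumor 2, at 34.9, 27.4 and 23.3 CPM. In tumor 5, where 27 of 46 members of complex I and 12 of 17 of complex V were highest, but 2 of 8 of complex III and 8 of 18 of complex IV, Sdhc was at 15.9 CPM, below the median of 20.1 over tumors 1 to 6, and Sdhb and Sdhd were at 27.0 and 18.1 CPM, above theirs. Against the controls, tumors 7 to 9 had log2 fold changes of -0.81 for Sdhb and -0.73 for Sdhd (edgeR adjusted p = 0.409 and 0.525), which did not pass, with all 3 tumors below every control for both.

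Complex III, which passes electrons from ubiquinol to cytochrome c, had the highest median fold change of the complexes. Its core proteins Uqcrc1 and Uqcrc2 went apart in size. Uqcrc2 was at 2.12, 4.57 and 3.83 CPM in the controls, 3.20, 2.13 and 1.43 CPM in tumors 7 to 9, and 51.5 CPM at the lowest, 64.8 at the median and 116 at the highest of tumors 1 to 6. Uqcrc1 was at 4.14, 3.17 and 3.03 CPM in the controls, 1.45, 3.39 and 3.09 CPM in tumors 7 to 9, and from 13.9 through 22.7 to 32.3 CPM in tumors 1 to 6. Both rose without tumors 7 to 9, Uqcrc2 by 4.06 (SE 0.50) and Uqcrc1 by 2.44 (SE 0.38) on the log2 scale, and the Rieske iron-sulfur protein gene Uqcrfs1 by 4.12 (edgeR adjusted p = 4.7e-05, 2.6e-04 and 4.7e-05). Uqcrfs1 was at 1.06, 1.42 and 1.01 CPM in the controls, which is 1.03 to 1.48 times the receptor median, so its control level is at the background and its fold change is bounded by that background. Tumor 3 was lowest for Uqcrfs1, at 11.5 CPM, and highest for Uqcrc1.

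Cycs encodes cytochrome c, which carries electrons between complexes III and IV and starts the caspase cascade when released. It was at 6.48, 5.29 and 5.93 CPM in the controls, 8.81, 6.14 and 5.79 CPM in tumors 7 to 9, and 21.0 CPM at the lowest, 29.5 at the median and 58.4 at the highest of tumors 1 to 6. The 6 stood above the others, with a log2 fold change of 2.29 without tumors 7 to 9 (SE 0.42, edgeR adjusted p = 9.1e-04). Cycs has many processed pseudogenes in the mouse, and the authors' quantification could split reads among near-identical copies, as for other members with pseudogenes, so its level is uncertain.

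Complex IV reduces oxygen at core subunits of the mitochondrial genome, and its nuclear members surround them. Cox4i1, the largest of these, was at 5.53, 5.11 and 4.29 CPM in the controls, 4.97, 4.92 and 4.07 CPM in tumors 7 to 9 and from 38.6 through 73.1 to 99.9 CPM in tumors 1 to 6. Cox6c was at 7.15, 3.80 and 3.78 CPM in the controls, 6.61, 4.25 and 3.99 CPM in tumors 7 to 9, and from 61.2 through 120 to 333 CPM in tumors 1 to 6. For both genes tumors 1 to 6 were above all others and tumor 3 was the lowest of them. Tumors 1, 2 and 5 held 99.9, 92.1 and 97.7 CPM of Cox4i1 while tumors 3, 4 and 6 held 38.6, 54.1 and 49.6 CPM.

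Complex V joins a catalytic head of alpha, beta and other subunits to a ring of subunit c in the membrane. Atp5a1, the alpha subunit, was at 4.91, 8.99 and 6.19 CPM in the controls, 15.5, 6.43 and 3.25 CPM in tumors 7 to 9, and 198 CPM at the lowest, 208 at the median and 439 at the highest of tumors 1 to 6. Leaving out tumor 5, the highest of the 6 was 240 CPM, so that 5 tumors lay within a narrow range. Its log2 fold change was 4.66 with all 9 tumors (SE 1.43, edgeR adjusted p = 0.129) and 4.95 without tumors 7 to 9 (SE 0.56, edgeR adjusted p = 3.2e-05). Atp5b was at 8.17, 15.9 and 13.6 CPM in the controls, 8.67, 11.9 and 6.99 CPM in tumors 7 to 9, and from 175 through 229 to 332 CPM in tumors 1 to 6. Atp5b and Atp5c1, the gamma subunit of the central shaft, rose by 3.96 and 4.59 without tumors 7 to 9 (edgeR adjusted p = 4.8e-05 and 4.0e-05). These 3 subunits of the head were thus all several-fold higher in tumors 1 to 6 than in any other library.

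Between tumors 7 to 9 and the controls, 0 of 93 members were called in either direction by edgeR, where 0.0247% of all genes were called higher and 0.0247% lower. At an unadjusted p under 0.05 there were 8 members, namely Ndufa2, Ndufa9, Ndufa13, Ndufv1, Sdhb, Sdhd, Cox7a2l and Atp5o, all with a negative value. Among all genes 9.04% were under that p in either direction and 3.86% with a negative value. The count of 8 of 93 is near the former rate and above the latter, and none of them passed the adjusted test. The log2 fold change was below 0 for 66 of 93 members, with a median of -0.14 against -0.01 for all genes, and tumors 7 to 9 were all below every control for 14 of 93, where 7.21% of all genes were. By complex the median was -0.12 for I, -0.47 for II, -0.21 for III, -0.11 for IV and -0.20 for V, and Cycs had 0.22. The comparisons share their controls, so these values are not independent of those above.

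Tumor 5 stood apart among tumors 1 to 6. Of the 80 members with at least 5 CPM on average, 48 were highest in tumor 5, against 2352 of 8575 nuclear protein-coding genes at that level. Ndufb4, an accessory subunit of complex I, was at 18.3 CPM in tumor 5 and 2.19 to 3.96 CPM in the 5 others, which gave it the largest ratio of highest to lowest tumor among members with at least 5 CPM, 8.35. There 449 counts lay on a retained-intron transcript of 465 bases and 9 on its coding transcript of 971 bases. Over tumors 1 to 6 the coding transcript of Ndufb4 held 0 to 16 unscaled counts, against 9 to 19 in the controls. The retained-intron transcript held 11 to 449 in tumors 1 to 6 and 6 to 17 in the controls. Next came Ndufc2 with a ratio of 6.08, Ndufa2 with 5.57, Ndufa5 with 5.56, Cox6c with 5.44 and Cox6a1 with 5.18, all small subunits and all highest in tumor 5. Tumor 5 was also the most deeply sequenced library, with 110523 counts on members, and the library with a receptor median of 0.

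The tumors also differed in how a gene's level went with its base composition. Over the 70 of these 80 members with a GC value, the deviation from the median of tumors 1 to 6 had a Spearman correlation with GC content of -0.38 in tumor 5 and 0.55 in tumor 6. Over all 8575 genes it was -0.40 and 0.26. The median deviation of members in tumor 5 was 0.58 on the log2 scale, against 0.03 for all 8575 genes. It was 0.85 for the 31 members under 50% GC and 0.47 for the 39 at or above it, so members of both classes lay high in tumor 5. In tumor 6 the same classes had -0.16 and 0.09. The part of GC content in the level of tumor 5 was not tested.

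**Figure D5:**
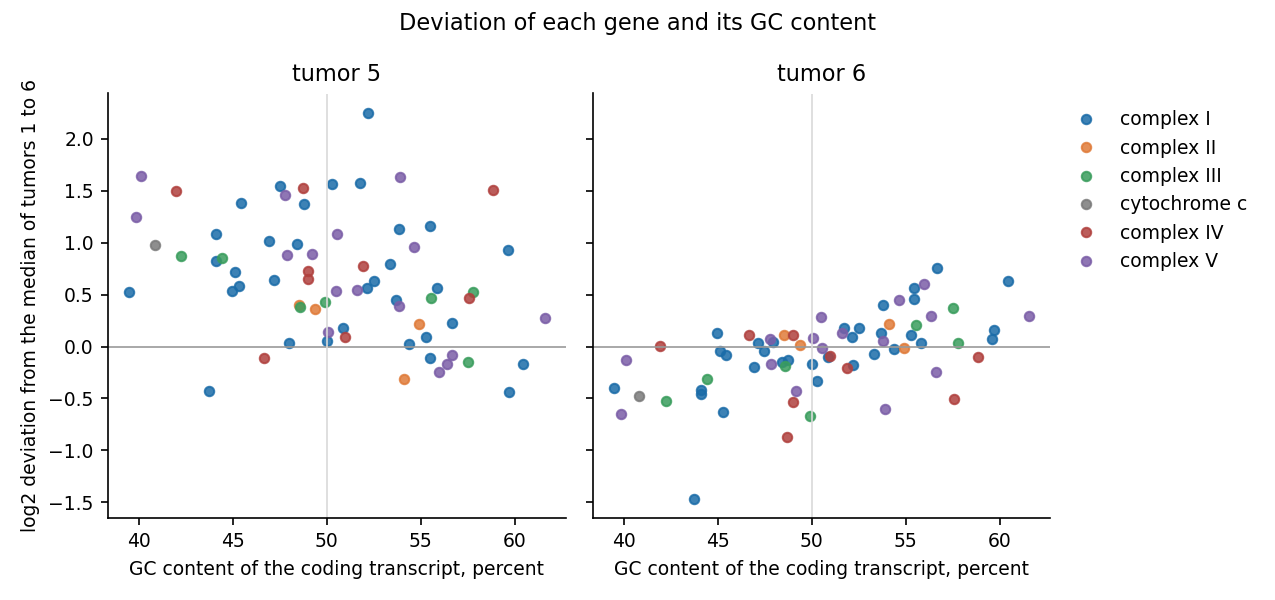
Deviation of each of 70 genes from its median over tumors 1 to 6, on the log2 scale, against the GC percent of its coding transcript, in tumor 5 and tumor 6; points are genes, coloured by complex. Most genes lie above 0 in tumor 5, with a median of 0.58, and the slope with GC content is opposite in the 2 tumors.

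The 13 subunits that the mitochondrial genome encodes did not keep step with the nuclear ones. Their summed level was 103, 98.9, 89.2, 157, 20.4 and 23.2 times that of the 94 members in tumors 1 to 6. Tumors 5 and 6 thus had the lowest ratios, with tumor 5 highest and tumor 6 in the middle for the nuclear members. In the controls the ratio was 40.0, 1.25 and 0.953, and in tumors 7 to 9 it was 43.1, 25.9 and 6.23. From lowest to highest, the controls alone thus spanned a larger fold than tumors 1 to 6, though not a larger difference. Without tumors 7 to 9, 12 of 13 rose by edgeR, with mt-Nd5 as the one that did not pass (adjusted p = 0.0571). The most abundant were mt-Co1, the catalytic core of complex IV, at 8210 to 72629 CPM, and mt-Cytb, the core of complex III, at 8541 to 60639 CPM in tumors 1 to 6.

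Other genes of the pathway, from lists of subunits and helpers outside the names above, moved in part with the members. In the fit without tumors 7 to 9, 14 of 19 complex IV assembly factors rose, 6 of 6 genes around complex V, 4 of 7 around complex III, 2 of 4 of complex II and 6 of 9 of complex I, where 19.6% of all genes did. Cyc1, the heme subunit of complex III, had 1.31 ± 0.327 CPM (SD, n = 3) in the controls and from 2.79 to 16.0 CPM in tumors 1 to 6, with a log2 fold change of 2.35 (edgeR adjusted p = 0.00793). Atpif1, which inhibits the ATP synthase when it runs backwards, had 1.90 ± 0.312 CPM (SD, n = 3) in the controls, 0.905 to 1.40 CPM in tumors 7 to 9 and 36.1 to 51.7 CPM in tumors 1 to 6. Acad9, a fatty acid dehydrogenase that helps assemble complex I, went the other way: it had 286 ± 51.3 CPM (SD, n = 3) in the controls and a range of 40.4 to 167 CPM over tumors 1 to 6, and fell by 1.90 on the log2 scale without tumors 7 to 9 (edgeR adjusted p = 0.00264). Its control level is unusual, since the 94 members together summed to 261 to 296 CPM there. The counts of Acad9 were not split by transcript.

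The citrate cycle and pyruvate dehydrogenase list, whose enzymes feed NADH to complex I, had 18 of 19 genes higher in that fit, with a median of 2.78. Mpc2 of the pyruvate carrier did not pass. Of 12 genes of coenzyme Q synthesis 5 rose, among them Coq2, with 2.38 ± 0.585 CPM (SD, n = 3) in the controls and a range of 17.9 to 36.8 CPM over tumors 1 to 6. Among 13 regulators of mitochondrial biogenesis 11 rose and 1 fell. Nrf1, whose motif is shown above, had 7.83 ± 0.613 CPM (SD, n = 3) in the controls, a range of 9.46 to 13.1 CPM over tumors 7 to 9 and of 37.6 to 133 CPM over tumors 1 to 6. Myc, which is known to raise mitochondrial genes, had 1.40 ± 0.211 CPM (SD, n = 3) in the controls and ranges of 2.48 to 3.64 CPM and 48.2 to 160 CPM. Ppargc1a, a coactivator of mitochondrial biogenesis in muscle and brown fat, fell by 1.51 on the log2 scale without tumors 7 to 9 (edgeR adjusted p = 0.0346), from 5.11 ± 0.540 CPM (SD, n = 3) to 0.871 to 4.42 CPM. In that fit the receptor genes that measure background had a median of -2.15, and 703 of 1423 were called lower. The fall of Ppargc1a was thus smaller than that of the median background gene. With all 9 tumors 0 genes of these lists passed by edgeR.

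Markers of other cell types differed between the groups too, and their part in the results was not tested. Macrophage markers summed to 15.6 to 83.4 CPM in tumors 1 to 6 and 13.3 to 16.2 CPM in the controls, and smooth muscle and pericyte markers to 5.85 to 166 and 15.8 to 17.9 CPM. Fibroblast and endothelial markers were at 192 to 1207 CPM in tumors 1 to 6, with tumor 5 highest, and 56.0 to 106 CPM in the controls. Pecam1, from the fibroblast and endothelial list, and Pdgfrb, from the smooth muscle and pericyte list, had log2 fold changes of 4.13 and 3.48 without tumors 7 to 9. Both were above the members' median of 2.70, and neither value measures the amount of a cell type. The medians of their lists went the other way in that fit, at -0.57 for fibroblast and endothelial and -1.59 for smooth muscle and pericyte markers. Over tumors 1 to 6, Pecam1 alone held 175 to 1152 CPM and Pdgfrb 0.918 to 154 CPM, so single genes made up much of the highest sums. B cell, thymic epithelial and adipocyte markers were lower in tumors 1 to 6, at 4.81 to 20.7, 5.43 to 25.5 and 2.21 to 14.3 CPM, than in the controls, at 30.6 to 32.3, 25.4 to 34.0 and 15.5 to 17.2 CPM, apart from an overlap for thymic epithelium. Erythroid markers overlapped, at 2.62 to 11.2 and 4.12 to 13.5 CPM. Without tumors 7 to 9, edgeR called 13 of 14 T lineage markers higher, 2 of 8 fibroblast and endothelial, 1 of 7 macrophage and 1 of 5 smooth muscle and pericyte markers, and 0 of the other lists, where 19.6% of all genes were higher. It called 2 fibroblast and endothelial, 2 B cell, 2 thymic epithelial, 1 adipocyte, 1 germ cell and 1 erythroid marker lower, where 20.3% of all genes were.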

How the data were processed

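Polyadenylated RNA of 9 leukemias and 3 control thymuses, sequenced from both ends with 75 bases a read, was analysed. The authors deposited estimated counts and transcripts-per-million (TPM) from kallisto for each of 128622 transcripts, per the file headers, and their processing notes also name FastQC and mm10, with versions and annotation not given in the sources used here. Estimated counts were summed per gene and rounded. edgeR 4.0.16 (TMM factors, filterByExpr by group, quasi-likelihood F test, Benjamini-Hochberg over all 40521 genes tested, threshold 0.05) compared 9 tumors with 3 controls, and 94 of 94 members passed the filter. All CPM are TMM-scaled, with 1 count worth 0.0332 to 0.136 CPM. CPM per kb sums counts over effective length by transcript. Alternatives were DESeq2 1.42.0, limma 3.58.1 on log2(TPM + 1) of the deposited TPM, other scaling factors and filters, and subsets of libraries. The tumor and control libraries share numbers 1 to 3, and their deviations had correlations of 0.07, 0.08 and -0.09. The edgeR fit alone was tested on simulated counts. Apart from the genes changed on purpose, these had a common profile in all libraries, so the differences in library makeup seen here were not simulated. Values of a core subunit and of a gene of another list are not reported here.

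Named genes were, per complex, the 4 highest and 2 lowest members by mean CPM per kb, the 18 catalytic or core members, the members of paralogous families and the 6 with the largest ratio between tumors 1 to 6. Of the other lists the 2 highest genes could be named, and Cyc1, Nrf1, Ppargc1a, Mpc2 and mt-Nd5, as well as members listed by their calls or motifs, were named after their values were seen. The NRF1 and YY1 motifs were first searched with 1 more letter each. Members and lists were chosen with earlier results of these data known. Gene symbols were matched to GENCODE M21 for all 94 members, and 83 have a GC value from a transcript of equal length.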

Additional observations from a re-analysis of the deposited data

Results flagged for a closer look

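In groups of 4 to 10 libraries, 31 of 128 groups of values tested had a highest or lowest library with a gap to the next one that was too large a part of the whole range by Dixon's 95% limit. Chance gives about 1 in 20 such groups when the groups are independent. These groups are not, since their genes share the same libraries and several genes entered both with all tumors and with part of them. Ndufb4, Ndufc2 and Ndufa2 were also named for their large ratio between tumors. The count of 31 therefore cannot be set against that rate. Tumor 5 was the outlying library in 25 of the 31.

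Among tumors 1 to 6, tumor 5 was far above the others for Atp5a1 (439 CPM, others 198 to 240), Atp5f1 (268 CPM, others 78.4 to 93.2), Atp5j (152 CPM, others 40.5 to 69.7), Cox7b (118 CPM, others 35.0 to 46.6), Ndufa6 (89.3 CPM, others 21.0 to 32.9) and Ndufs1 (96.5 CPM, others 44.9 to 61.3). It also led for Ndufv2 (79.2 CPM, others 33.5 to 42.2), Cox6a1 (61.9 CPM, others 11.9 to 29.1), Ndufa5 (48.6 CPM, others 8.74 to 16.8), Ndufa2 (29.5 CPM, others 5.30 to 10.9), Ndufc2 (27.7 CPM, others 4.56 to 11.7), Cox8a (20.8 CPM, others 10.7 to 14.4) and Ndufb4 (18.3 CPM, others 2.19 to 3.96). Over all 9 tumors the same library stood out for Atp5f1, Atp5j, Cox6a1, Cox7b, Ndufa2, Ndufa5, Ndufa6, Ndufb4 and Ndufc2, with the same values. The summed level of complex I was 1094 CPM in tumor 5 and 592 to 718 CPM in the others, and that of complex V was 1824 and 823 to 1120 CPM. Tumor 5 was lowest for the log2 ratio of the complex II median to the complex I median, at -0.525, with the others at 0.764 to 1.08.

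The other libraries that stood out concerned low or single genes. Atp5g1, of the c ring, was at 31.4 CPM in tumor 2, against 9.30 to 15.6 CPM in the other 5 of tumors 1 to 6 and 8.29 to 15.6 CPM in the other 8 tumors. Cox6b2 was at 0.545 CPM in tumor 4, against 3.67 to 4.97 CPM. Cox6a2 was at 1.72 CPM in tumor 3, with 0 to 0.751 CPM in the other 8 tumors, Cox7b2 at 0.983 CPM in tumor 7, with 0.0637 to 0.520 CPM, and Cox8c at 0.390 CPM in tumor 2, with 0 to 0.136 CPM in the other 5 of tumors 1 to 6.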

How the results depend on the processing

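Median log2 fold changes and counts of members called depended on which tumors entered and on the scaling. The median of 2.39 became 0.14 with library totals, -0.14 with tumors 7 to 9 only and -0.46 with limma on log2(TPM + 1), where 16 members were lower and 79.3% of all genes were. The count of members higher, 0 with all 9 tumors, was 76 without tumors 7 to 9 and 47 by DESeq2, and the count was also 79, where 20.7% of all genes were called higher, with the library number as a replicate block, although the numbers do not pair the libraries. Leaving out each library in turn gave 0 higher and 0 lower in every case, with the median between 2.15 and 2.52.

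Relative to complex I on the log2 scale, summed levels in place of medians gave -3.07 for complex II, -1.23 for III, 0.018 for IV and 0.35 for V, since a sum grows with the number of members. Subunits alone gave 0.25 for complex II, 0.90 for III, 1.5 for IV and 1.19 for V, so the order of III, IV and V did not hold. Of alternatives chosen after seeing the data, counts on protein-coding transcripts gave 1.59 for complex III, and leaving out Atp5s and Atp5sl gave 1.86 for V. Without each tumor in turn, the ratios ran from 0.57 to 0.89 for II, 1.10 to 1.23 for III, 0.91 to 1.00 for IV and 1.21 to 1.33 for V.

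Of the core members whose log2 fold changes are printed, several changed sign. With tumors 7 to 9 only the values were -0.47 for Atp5b, -0.014 for Ndufs3, -0.10 for Ndufs7, -0.66 for Ndufs8, -1.01 for Ndufv1, -0.31 for Ndufv2, -0.21 for Sdha, -0.81 for Sdhb, -0.083 for Sdhc, -0.73 for Sdhd, -0.38 for Uqcrc1, -0.68 for Uqcrc2 and -0.15 for Uqcrfs1. With library totals they were -0.13 for Cycs, -0.43 for Ndufs1, -0.065 for Ndufs3, -0.90 for Ndufs7, -0.71 for Ndufv1, -0.30 for Sdhc and -0.044 for Uqcrc1. With limma on log2(TPM + 1) they were -0.81 for Cycs, -0.82 for Ndufs1, -0.78 for Ndufs3, -1.99 for Ndufs7, -0.36 for Ndufs8, -1.62 for Ndufv1, -0.62 for Sdha, -0.50 for Sdhb, -0.30 for Sdhd, -1.11 for Uqcrc1 and -0.54 for Uqcrc2. Beyond what the settings themselves change, the cause was not tested. Among all 57 named members, 42 changed sign with tumors 7 to 9 only, 30 with limma and 15 with library totals. Control levels near the background limit every fold change against the controls.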

Other observations

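A few members had counts that sat on an unusual transcript, which a gene sum hides; Ndufb2 and Atp5l were chosen after their values were seen. A retained-intron transcript of 1110 bases of Ndufb2, an accessory subunit of complex I, had 1331 counts in tumor 8 and 653 in tumor 9 but 22 in tumor 7. The controls had 138 to 307 counts on it, and tumors 1 to 6 had 37 to 191. Atp5l, subunit g of the ATP synthase, had 332 to 523 counts in the controls on a retained-intron transcript of 6310 bases, and 24 to 34 on its coding transcript of 544 bases. In tumor 5 a noncoding Atp5l transcript of 295 bases had 1169 counts against 578 on the coding one, and in the 5 others of tumors 1 to 6 it had 23 to 66. A noncoding transcript of Atp5b, of 478 bases, had 2482 counts in tumor 5 and 85 to 421 in those 5, and one of Ndufs7, of 722 bases, had 507 in tumor 5 and 27 to 79 in those 5.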
